A study of Mus musculus with 36 samples.

Results

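Osteoclast growth signals were followed in mouse tibia through 6 genes chosen for their place in the 2 pathways that monocyte-lineage cells need to become osteoclasts. They comprised 3 ligands, *Tnfsf11* (RANKL), *Csf1* (M-CSF) and *Il34* (IL-34), and 3 receptors, *Tnfrsf11a* (RANK), *Csf1r* (the receptor of M-CSF and IL-34) and *Tnfrsf11b* (osteoprotegerin, OPG, a secreted decoy receptor). Each of these 6, among 55484 gene symbols in all, had 1 row in the table, and each passed the filter on low values that left 15923 genes for testing.

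Bulk poly(A) RNA was sequenced from tibiae of 36 mice, all 6 months old, in 3 groups of 12 with 6 males and 6 females each. Wild-type mice carried no transgene, and their labels name no injection. If none was given, genotype and injection cannot be told apart in comparisons with wild-type. The saline-treated *LMNA* G/G and ABE-treated *LMNA* G/G mice both carried, in double copy, a human *LMNA* transgene on a bacterial artificial chromosome with the G608G mutation of progeria (LMNA G608G/G608G), and were injected behind the eye 14 days after birth with saline or with ABE. ABE stands for adenine base editor, a protein that rewrites the mutant base in place and that was delivered by a pair of AAV9 viral vectors. Only some transgene copies are corrected in such a treatment, so ABE-treated bone is a mixture of corrected and uncorrected cells. The study states that bone ends and marrow were taken out first, which left mostly cortical bone. Markers of marrow cells were nevertheless measured in every group, as given below. The study calls the mice littermates, while the labels give no litter and number wild-type and *LMNA* G/G mice in separate series, so litter or batch could not be entered in the tests.

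RANKL is a membrane-bound or shed cytokine made by osteocytes, osteoblasts, marrow stroma and lymphocytes. It binds RANK on osteoclast precursors and drives their fusion and activation. OPG, made by osteoblasts and osteocytes among other cells, binds RANKL and keeps it from RANK, so the balance of ligand and decoy is widely used as a readout of the drive to bone resorption. M-CSF keeps osteoclast precursors and macrophages alive and dividing through CSF1R, and IL-34 binds the same receptor although its sequence is unrelated.

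Levels are given as scaled TPM, the deposited TPM (transcript abundance corrected for gene length and library total) divided by a factor for each library, and differences as log2 fold changes of scaled TPM + 0.5 from limma with sex as a covariate and Benjamini-Hochberg adjustment over all genes tested. That scale understates changes of genes with low TPM, so ratios of group means are given beside it, with limma-voom values on recovered reads for *Tnfsf11* and *Tnfrsf11b*. Libraries held between 48064068 and 116206662 reads on genes. One library stood apart. The ABE-treated female of replicate 1 had a scaling factor of 0.216, where the other 35 libraries lay between 0.609 and 1.57, and the shortest genes, whose length exceeds the deduction made when TPM were calculated by at most 1 bp, took 96.6% of its TPM (at most 93.0% in the others). It had the lowest level of 4 of the 6 genes among ABE-treated mice, and some of the results, not all, are also given without it. Osteocyte markers were present in every group, with a summed level of 8 genes of 11.4 to 52.7 scaled TPM in wild-type mice, of 176 to 492 with saline and of 181 to 356 with ABE. Skeletal muscle markers differed as well, with a summed level of 8 genes of 193 to 2954 in wild-type mice, of 290 to 7408 with saline and of 1005 to 12287 with ABE. Marrow cell markers were also present. The summed level of 8 neutrophil genes was 783 to 2399 in wild-type mice, 1040 to 3559 with saline and 348 to 3920 with ABE. That of 6 erythroid genes was 126 to 344, 102 to 350 and 23.5 to 263 in the same order. In whole tissue, fewer cells of a type and less RNA per cell cannot be told apart.

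The genes lie on separate chromosomes of GRCm38 and each level is a sum over its exons. *Tnfsf11* (ENSMUSG00000022015.8) lies at chr14:78277445-78308043 on the minus strand, *Csf1* (ENSMUSG00000014599.10) at chr3:107741048-107760469 on the minus strand and *Il34* (ENSMUSG00000031750.15) at chr8:110741829-110805924 on the minus strand. *Tnfrsf11b* (ENSMUSG00000063727.3) lies at chr15:54250619-54278484 on the minus strand and *Tnfrsf11a* (ENSMUSG00000026321.7) at chr1:105780718-105847981 on the plus strand. *Il34* overlaps the antisense genes Gm15894 and Gm15895. The libraries kept strand, but the strand setting of the counting is not given in the sources used here, so reads of such partners may be shared.

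Promoter windows were found only for the ligands *Tnfsf11* and *Csf1* and for the receptor RANK. They are shown as the 250 bases before the annotated start (RefSeq, GRCm38.p6), 5′ to 3′ on the gene's strand. Capitals mark matches on either strand to any of the motifs that follow. The NF-kB site was searched as GGG and CC with 5 bases of any kind between them. The core promoter element known as the TATA box was searched as TATAAA. The core of the cAMP response element, CRE, was searched with the letters TGACG.
Tnfsf11 promoter, chr14:78308044-78308293, minus strand: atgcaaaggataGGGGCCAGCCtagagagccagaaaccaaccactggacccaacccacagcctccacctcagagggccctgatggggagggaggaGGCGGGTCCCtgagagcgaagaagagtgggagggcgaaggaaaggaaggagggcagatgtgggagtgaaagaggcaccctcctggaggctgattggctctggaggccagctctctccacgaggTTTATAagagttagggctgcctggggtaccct
Csf1 promoter, chr3:107760470-107760719, minus strand: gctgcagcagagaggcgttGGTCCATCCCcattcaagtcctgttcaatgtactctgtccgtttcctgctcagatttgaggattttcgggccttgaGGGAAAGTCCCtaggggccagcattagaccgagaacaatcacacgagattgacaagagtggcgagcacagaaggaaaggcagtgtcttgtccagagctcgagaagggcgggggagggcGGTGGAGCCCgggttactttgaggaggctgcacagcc
Tnfrsf11a promoter, chr1:105780473-105780722, plus strand: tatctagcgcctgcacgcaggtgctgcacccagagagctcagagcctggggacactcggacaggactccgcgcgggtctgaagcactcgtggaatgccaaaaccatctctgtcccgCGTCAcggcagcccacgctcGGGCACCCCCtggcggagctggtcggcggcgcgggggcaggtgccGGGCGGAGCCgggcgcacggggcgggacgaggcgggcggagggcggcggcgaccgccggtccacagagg
The *Tnfsf11* window held a TATA box match from -32 to -27 of the start, a match that 12.4% of 32851 mouse promoter windows of the same length contain. NF-kB letters matched 2 times before *Tnfsf11*, 4 times before *Csf1*, where 2 matches overlap from -155 to -145, and 2 times before *Tnfrsf11a*, and 45.8% of all windows held at least 1 such match. The *Tnfrsf11a* window had the highest share of G and C, 73.6%, against 60.4% for *Tnfsf11* and 56.4% for *Csf1*, and its CRE letters occur in 17.8% of windows. None of the 3 windows matched TGTGGT (RUNX), TGANTCA (AP-1) or AGGTCA (a nuclear receptor half-site), which 14%, 6.75% and 14% of windows hold. These matches describe letters and are not evidence of binding.

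In wild-type bone the receptor *Csf1r* had the highest level, 8.55 ± 1.12 scaled TPM (SD, n = 12), and its ligand *Csf1* the second highest, 4.81 ± 1.03. *Il34*, *Tnfrsf11a*, *Tnfrsf11b* and *Tnfsf11* followed at 1.45, 1.04, 0.761 and 0.412 scaled TPM. Neighbours in this order kept their places in 10 to 12 of the 12 mice. In both *LMNA* G/G groups *Tnfrsf11b* ranked after *Csf1r* and *Csf1*, above *Il34* and *Tnfrsf11a*, while *Tnfsf11* stayed the lowest. There the order was looser, since *Csf1r* exceeded *Csf1* in 9 of 12 saline-treated and 9 of 12 ABE-treated mice, against 12 of 12 wild-type mice, and *Il34* exceeded *Tnfrsf11a* in only 7 of 12 saline-treated mice.

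**Figure D1:**
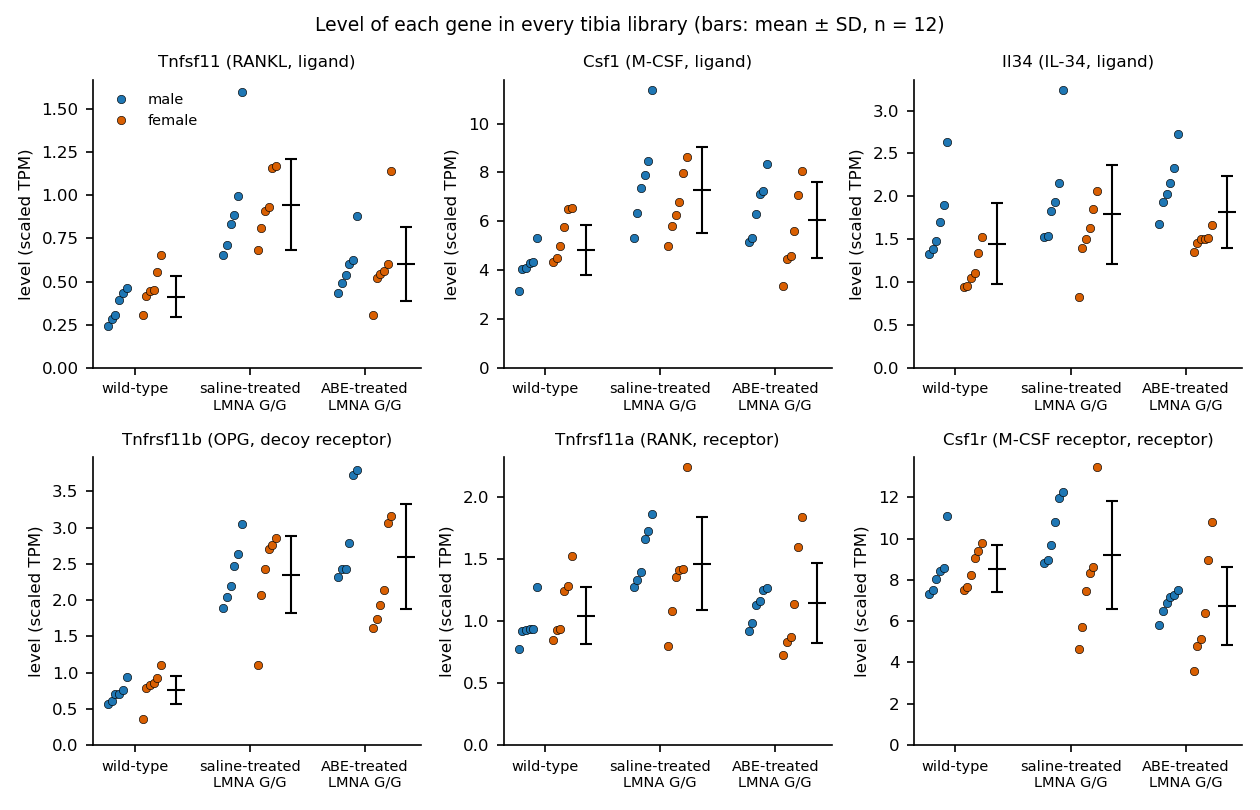
Level of each gene in scaled TPM (vertical axes from 0) in the 36 tibia libraries, with ligands in the upper row and receptors in the lower row. Points are mice, blue for males and orange for females, and bars are mean ± SD of 12 mice. The *Tnfrsf11b* points of both LMNA G/G groups lie above nearly all wild-type points, and *Tnfsf11* is highest in the saline-treated group.

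Compared with wild-type, saline-treated *LMNA* G/G bone had higher levels of all 3 ligands and of 2 of the 3 receptors. The decoy *Tnfrsf11b* had the largest difference, a ratio of means of 3.09, followed by its ligand *Tnfsf11* at 2.30, *Csf1* at 1.51, *Tnfrsf11a* at 1.40 and *Il34* at 1.24. *Csf1r* did not pass the test. Of the 6 genes 5 were thus called, against 52.6% of all genes tested in this comparison (25.9% of all genes were called higher and 26.7% lower), so that many genes of other kinds were called too.

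*Tnfsf11* ranged from 0.243 to 0.653 scaled TPM in wild-type mice (median 0.424) and from 0.657 to 1.60 in saline-treated mice (median 0.898). The 12 saline-treated libraries all lay above the 12 wild-type libraries, with a narrow gap, as did those of 2.74% of all genes. The log2 fold change was 0.66 (SE 0.094, limma adjusted p = 6.9e-07), and 1.20 by limma-voom. These levels rest on 129 to 390 reads per wild-type library and 397 to 984 reads per saline-treated library. *Csf1* ranged from 3.15 to 6.53 scaled TPM in wild-type mice (median 4.42) and from 5.0 to 11.4 in saline-treated mice (median 7.07). Its log2 fold change was 0.54 (SE 0.13, limma adjusted p = 8.7e-04). The groups overlapped, with 7 of 12 saline-treated mice above all wild-type mice, and the male of replicate 9 was highest of its group in *Tnfsf11*, *Csf1* and *Il34* alike. *Il34* ranged from 0.939 to 2.63 in wild-type (median 1.37) and from 0.830 to 3.24 in saline-treated mice (median 1.73). The groups overlapped almost fully, and the log2 fold change of 0.23 (SE 0.099, limma adjusted p = 0.049) passed the threshold in 16 of 51 alternative settings. Its call therefore rested on the setting used.

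*Tnfrsf11b* ranged from 0.356 to 1.10 scaled TPM in wild-type mice (median 0.777) and from 1.10 to 3.05 in saline-treated mice (median 2.45). Of the saline-treated mice 11 lay above every wild-type mouse, and the female of replicate 5 was level with the highest wild-type mouse. The log2 fold change was 1.17 (SE 0.12, limma adjusted p = 1.5e-09), and 1.65 by limma-voom. *Tnfrsf11a*, the signalling receptor of RANKL, had a median of 0.935 scaled TPM in wild-type (0.777 to 1.52) and of 1.40 in saline-treated mice (0.800 to 2.24), with a log2 fold change of 0.34 (SE 0.10, limma adjusted p = 0.0071). The groups overlapped, with 4 of 12 saline-treated mice above all wild-type mice. *Csf1r* (ENSMUSG00000024621.16), at chr18:61100598-61132149 on the plus strand, overlaps the end of *Hmgxb3* on the other strand. It had a median of 8.34 scaled TPM in wild-type (7.32 to 11.1) and 8.89 in saline-treated mice (4.64 to 13.5), and the log2 fold change was 0.06 (SE 0.14, limma adjusted p = 0.73). Saline-treated mice lay both above and below the wild-type range, 3 above and 2 below.

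The scaling decided some of these calls. On TPM as deposited the median log2 fold change of all genes was -0.13 in this comparison, and *Csf1* (0.38, limma adjusted p = 0.15) and *Tnfrsf11a* (0.22, limma adjusted p = 0.27) lost their calls, while *Csf1r* turned to -0.11. In the 6 females of each group alone *Csf1* (0.28, limma adjusted p = 0.30) and *Tnfrsf11a* (0.19, limma adjusted p = 0.51) lost their calls too. *Csf1r* was at -0.16 in females (limma adjusted p = 0.70) and was called higher in males (0.28, limma adjusted p = 0.028), a difference between the sexes that did not pass (limma interaction p = 0.11, adjusted 0.32). The split of calls over all genes changed on TPM as deposited, from 4129 higher and 4246 lower to 1038 higher and 3702 lower. *Tnfsf11* and *Tnfrsf11b* were called in every setting in which they were tested, 50 and 51 alternatives.

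ABE-treated *LMNA* G/G bone had lower levels than saline-treated bone of the ligand *Tnfsf11* and of both signalling receptors, *Tnfrsf11a* and *Csf1r*. The ratios of means were 0.638, 0.780 and 0.730. The decoy *Tnfrsf11b*, at 1.10, *Il34*, at 1.02, and *Csf1*, at 0.832, did not pass the test. The 3 called genes of 6 compare with 48.8% of all genes tested, and 23.7% of all genes were called lower and 25.1% higher.

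*Tnfsf11* ranged from 0.308 to 1.14 scaled TPM in ABE-treated mice (median 0.552), with 10 of 12 mice below every saline-treated mouse. The log2 fold change was -0.39 (SE 0.094, limma adjusted p = 0.0018), -0.68 by limma-voom, and -0.35 (limma adjusted p = 0.0041) without ABE replicate 1. The remaining overlap came from the ABE-treated replicates 2 and 12, which held 1.14 and 0.879 scaled TPM. *Csf1* ranged from 3.33 to 8.34 scaled TPM (median 5.95), and its log2 fold change was -0.25 (SE 0.13, limma adjusted p = 0.11). On TPM as deposited, where the median of all genes was -0.27, *Csf1* was called at -0.60 (limma adjusted p = 0.019). *Il34* ranged from 1.35 to 2.72 (median 1.67), with a log2 fold change of 0.04 (SE 0.099, limma adjusted p = 0.78). In this group the 6 males, at 1.67 to 2.72, lay just above the 6 females, at 1.35 to 1.67. The lowest male was at 1.671 and the highest female at 1.667. Males also had the higher mean in wild-type mice (1.74 against 1.15) and in saline-treated mice (2.04 against 1.55), where the sexes overlapped. This difference between the sexes was not tested, and the share of all genes without such overlap was not counted.

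*Tnfrsf11b* ranged from 1.62 to 3.8 scaled TPM in ABE-treated mice (median 2.43), so the medians of saline-treated and ABE-treated mice were nearly the same. Its log2 fold change was 0.11 (SE 0.12, limma adjusted p = 0.46), and -0.18 on TPM as deposited (limma adjusted p = 0.34). *Tnfrsf11a* ranged from 0.726 to 1.84 (median 1.13), with a log2 fold change of -0.26 (SE 0.10, limma adjusted p = 0.039). That call was lost in 15 of 51 alternatives, among them the fits without ABE replicate 1 (-0.22, limma adjusted p = 0.082), 4, 6, 7 or 9 or without saline replicate 3, 8, 11 or 12. *Csf1r* ranged from 3.60 to 10.8 (median 6.69), with a log2 fold change of -0.42 (SE 0.14, limma adjusted p = 0.012), and of -0.36 (limma adjusted p = 0.028) without ABE replicate 1. In females alone neither *Tnfrsf11a* (-0.18, limma adjusted p = 0.46) nor *Csf1r* (-0.28, limma adjusted p = 0.39) was called. Both groups of *Csf1r* levels overlapped widely.

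Markers of other cells moved beside the receptors. In the same comparison 7 of 10 macrophage genes and 8 of 11 osteoclast genes tested were lower and none was higher, 7 of 8 neutrophil and 6 of 6 erythroid genes were lower, and 7 of 8 muscle genes were higher. Of marrow stroma and adipocyte genes 4 of 6 were lower. Of endothelial genes 3 of 6 were higher, as were 3 of 6 periosteum and fibroblast genes. Of all genes tested 23.7% were called lower and 25.1% higher. Without ABE replicate 1 the macrophage and osteoclast counts were 7 and 8 again, and 3 of 8 neutrophil genes were lower. With the muscle list as a covariate *Tnfrsf11a* stood at -0.21 (limma adjusted p = 0.20) and *Csf1r* at -0.28 (limma adjusted p = 0.18), and with the neutrophil list at -0.22 (limma adjusted p = 0.22) and -0.30 (limma adjusted p = 0.17). *Tnfsf11* passed the threshold with either covariate. The part of cell composition in these differences was otherwise not tested.

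Against wild-type, ABE-treated *LMNA* G/G bone had a higher level of the decoy *Tnfrsf11b*, 3.41 times that of wild-type, and of the ligands *Tnfsf11* and *Il34*, 1.47 and 1.26 times. *Csf1r* was lower, at 0.788 times the wild-type mean. *Csf1*, at 1.26 times, and *Tnfrsf11a*, at 1.09 times, did not pass the test, so 4 of 6 genes were called where 70.6% of all genes were (35.1% higher and 35.4% lower). For *Tnfrsf11b* all 12 ABE-treated libraries lay above all 12 wild-type libraries, as for 3.45% of all genes. The log2 fold change of *Tnfrsf11b* was 1.28 (SE 0.12, limma adjusted p = 1.8e-10), and 1.77 by limma-voom.

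For *Tnfsf11* the log2 fold change was 0.26 (SE 0.094, limma adjusted p = 0.013), and 2 of 12 ABE-treated mice lay above all wild-type mice. *Il34* differed by 0.27 (SE 0.099, limma adjusted p = 0.017) and *Csf1* by 0.29 (SE 0.13, limma adjusted p = 0.0503), the latter just short of the threshold and past it without ABE replicate 1 (0.35, limma adjusted p = 0.012) and without any 1 of 11 other libraries. *Csf1r* differed by -0.36 (SE 0.14, limma adjusted p = 0.019), with 9 of 12 ABE-treated mice below every wild-type mouse, and *Tnfrsf11a* by 0.08 (SE 0.10, limma adjusted p = 0.51). With the muscle list as a covariate the *Csf1r* difference was -0.10 (limma adjusted p = 0.70). On TPM as deposited, where the median of all genes was -0.42, *Tnfsf11* stood at 0.02 (limma adjusted p = 0.89) and *Il34* at -0.14 (limma adjusted p = 0.35), and neither was called. Without the shortest genes in the TPM total they stood at 0.17 (limma adjusted p = 0.16) and 0.099 (limma adjusted p = 0.41), again not called. In females alone the calls of *Tnfsf11* (0.17, limma adjusted p = 0.30), *Il34* (0.28, limma adjusted p = 0.072) and *Csf1r* (-0.44, limma adjusted p = 0.14) were lost. That of *Il34* was also lost in males alone (0.25, limma adjusted p = 0.16), with no sex covariate (0.27, limma adjusted p = 0.056) and with the muscle list (0.31, limma adjusted p = 0.075). The 3 comparisons share groups, so their values for a gene are not independent of each other.

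**Figure D2:**
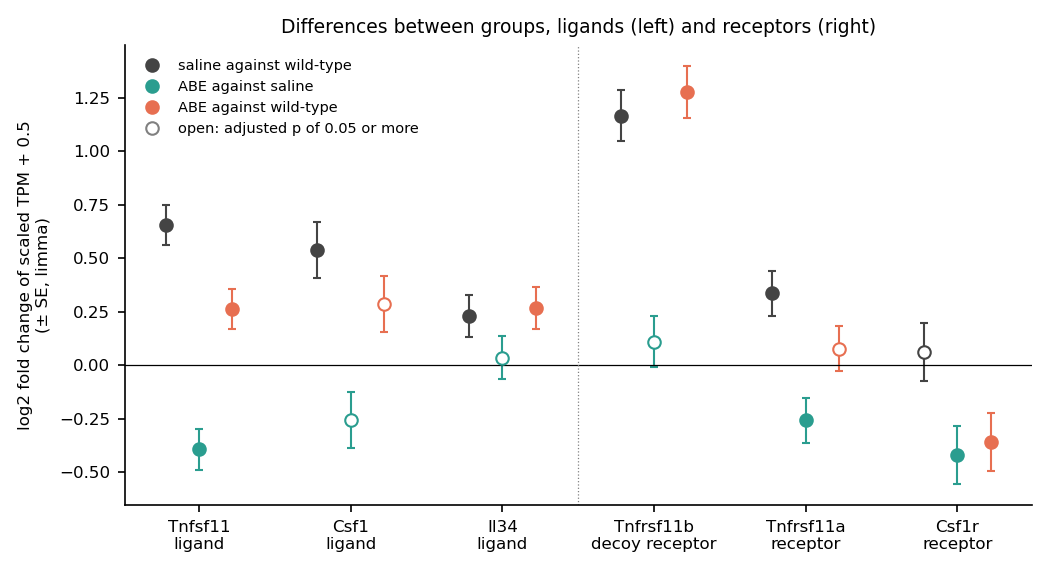
Log2 fold change of scaled TPM + 0.5 with its SE (limma, 12 mice a group) for each gene in the 3 comparisons, with ligands left and receptors right of the dotted line. Filled points have an adjusted p under 0.05. *Tnfrsf11b* is near 1.17 and 1.28 against wild-type and near 0.11 between ABE-treated and saline-treated mice, whereas *Tnfsf11* is at 0.66, 0.26 and -0.39.

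The ligands were set against the receptors as ratios of TPM within each library, which do not depend on the scaling of the library. Group means of log2 ratios were compared with two-sided permutation tests of 100000 resamples, whose smallest p is 1e-05, and 6 ratios in 3 comparisons gave 18 tests for adjustment.

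The ratio of *Tnfsf11* to the decoy *Tnfrsf11b* had a geometric mean of 0.540 in wild-type (0.332 to 1.25), 0.402 with saline (0.283 to 1.06) and 0.229 with ABE (0.165 to 0.372). Between saline-treated and wild-type mice both genes were higher, and the log2 ratio differed by -0.43 (SE 0.23), which missed the threshold (permutation p = 0.072, adjusted 0.093), with 10 of 12 saline-treated mice below the wild-type median. The saline-treated female of replicate 5, with a ratio of 1.06 and the lowest *Tnfrsf11b* of its group, weighed on this comparison, and without it the difference was -0.55 (permutation p = 0.0084). Leaving out saline replicate 9 or wild-type replicate 3 or 11 also brought the unadjusted p under 0.05, to between 0.042 and 0.049. In the other direction weighed wild-type replicate 5, with the highest ratio of its group, 1.25, and without it the difference was -0.32 (permutation p = 0.14). In ABE-treated mice the ratio was below that of saline-treated mice, by a log2 difference of -0.81 (SE 0.20, permutation p = 2.3e-04, adjusted 5.9e-04), with 11 of 12 mice below the saline median. It was also below wild-type, by -1.24 (SE 0.20, permutation p = 1e-05, adjusted 6e-05), and 12 of 12 mice lay below the wild-type median. The decrease between ABE-treated and saline-treated mice was -0.93 in males (exact permutation p = 0.0022, n = 6 a group) and -0.70 in females (exact permutation p = 0.069, n = 6 a group), and a test of the difference between the sexes did not pass (permutation p = 0.59).

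**Figure D3:**
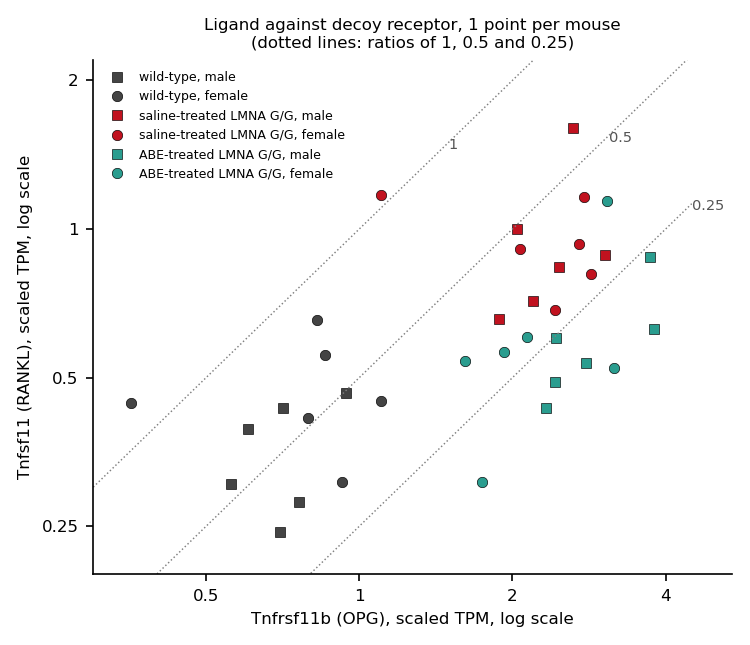
*Tnfsf11* against *Tnfrsf11b* in scaled TPM on log axes, 1 point per mouse, squares for males and circles for females, with dotted lines at ligand to decoy ratios of 1, 0.5 and 0.25. Wild-type mice lie at lower left around a ratio of 0.540, saline-treated mice at upper right around 0.402 and ABE-treated mice further down around 0.229, with the saline-treated replicate 5 above the line of 1.

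Against the signalling receptor the same ligand gave another picture. The ratio of *Tnfsf11* to *Tnfrsf11a* was 0.388 in wild-type mice, 0.647 with saline and 0.520 with ABE. It was higher than wild-type by 0.74 on the log2 scale in saline-treated (SE 0.14, permutation p = 2e-05, adjusted 9e-05) and by 0.42 in ABE-treated mice (SE 0.13, permutation p = 0.0040, adjusted 0.0079; 0.32 in females alone, exact permutation p = 0.14), and the difference between these groups, -0.32 (SE 0.16), did not pass (permutation p = 0.067, adjusted 0.092), although its unadjusted p fell to between 0.036 and 0.048 without ABE replicate 6, 9 or 12 or saline replicate 8. The decoy against the signalling receptor, *Tnfrsf11b* to *Tnfrsf11a*, went from 0.717 in wild-type to 1.61 with saline and 2.27 with ABE. Decoy transcripts were thus fewer than those of the receptor in wild-type and more in both *LMNA* G/G groups. Both differences from wild-type passed (1.16 and 1.66, adjusted permutation p = 1.1e-04 and 6e-05), and that between ABE-treated and saline-treated mice, 0.50, was near the threshold (SE 0.21, permutation p = 0.028, adjusted 0.045) and missed it without saline replicate 5 (0.40, permutation p = 0.054) or ABE replicate 9 (0.42, permutation p = 0.052). It was 0.74 in males (exact permutation p = 0.0022) and missed the threshold in females, at 0.25 (exact permutation p = 0.52).

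On the M-CSF side, the ratio of *Csf1* to *Csf1r* was 0.555 in wild-type mice, 0.800 with saline and 0.901 with ABE. It was higher than wild-type by 0.53 in saline-treated (SE 0.11, permutation p = 2e-04, adjusted 5.9e-04) and by 0.70 in ABE-treated mice (SE 0.093, permutation p = 1e-05, adjusted 6e-05), and all 12 ABE-treated mice lay above all 12 wild-type mice. The 2 *LMNA* G/G groups differed by 0.17 (SE 0.11, permutation p = 0.13, adjusted 0.15). *Il34* to *Csf1r* was 0.163, 0.193 and 0.274 in the same order, and ABE-treated mice were above saline-treated mice by 0.50 (SE 0.21, adjusted permutation p = 0.045) and above wild-type by 0.75 (SE 0.18, adjusted permutation p = 0.0013). The call between ABE-treated and saline-treated mice was lost without saline replicate 1 or 3 (permutation p = 0.052 in each) and in females alone, at 0.31 (exact permutation p = 0.43), against 0.70 in males. The ratio of both CSF1R ligands, *Csf1* to *Il34*, was 3.40, 4.14 and 3.29, and no comparison of it passed (adjusted permutation p from 0.092 to 0.80). For saline-treated against wild-type mice it differed by 0.65 in males (exact permutation p = 0.011) and by -0.08 in females (exact permutation p = 0.73), and by 0.31 in all mice with a pseudocount of 1 (permutation p = 0.042). Between the *LMNA* G/G groups its unadjusted p was between 0.022 and 0.048 without ABE replicate 2 or 3 or saline replicate 2 or 10. None of the 18 differences between the sexes in these ratios passed (adjusted permutation p of at least 0.099), so values for 1 sex are not shown to differ from those for the other.

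**Figure D4:**
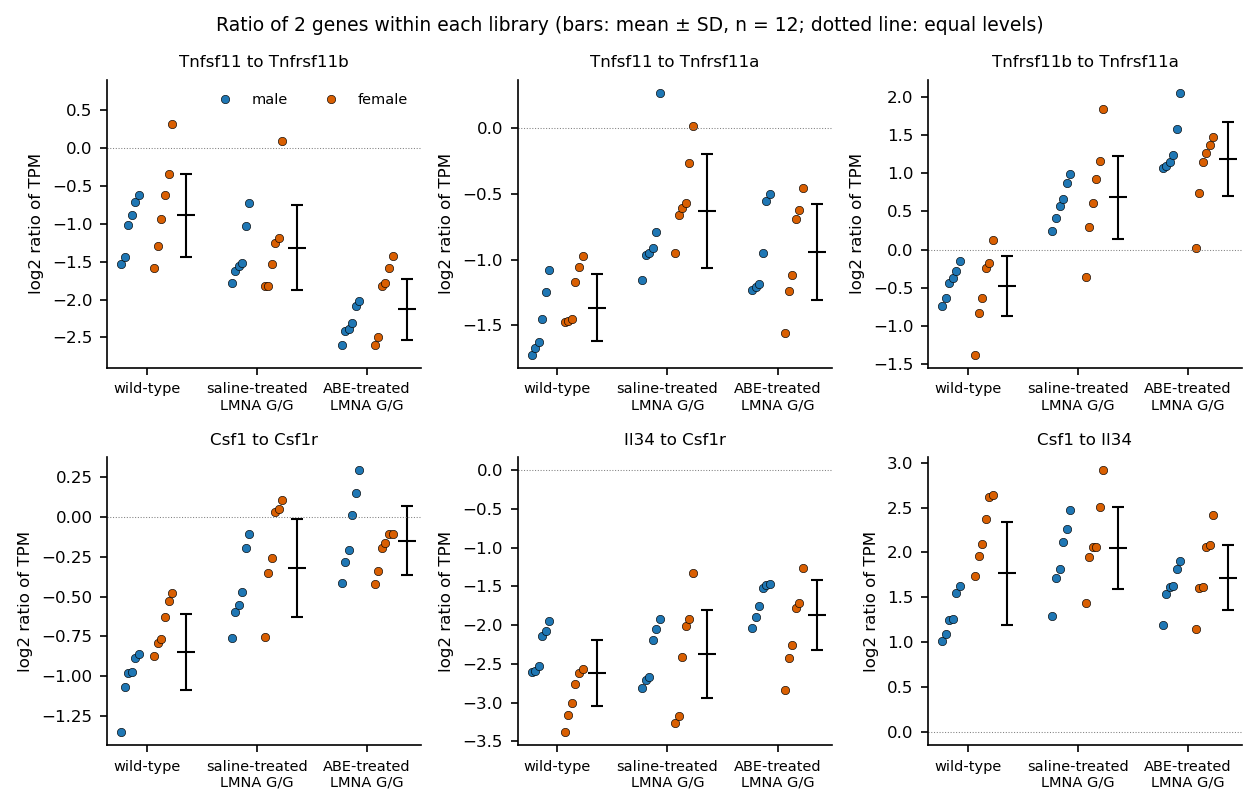
Log2 ratio of TPM of a pair of genes within each library, for 6 pairs, with points and bars as in the plot of levels and a dotted line at equal levels. The *Tnfsf11* to *Tnfrsf11b* ratio is lowest in ABE-treated mice, while *Csf1* to *Csf1r* is lowest in wild-type mice, with no overlap between wild-type and ABE-treated mice.

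The genes also varied together from mouse to mouse. After group and sex means were removed, 15 pairs of genes were correlated over the 36 mice, with permutation within group and sex. The ligands *Tnfsf11* and *Csf1* had r = 0.81 (rho = 0.77, adjusted permutation p = 3e-05 for r and 5e-05 for rho), and 0.80, 0.89 and 0.76 among wild-type mice, saline-treated mice and ABE-treated mice taken alone. The receptors *Tnfrsf11a* and *Csf1r* had r = 0.92 (rho = 0.87, adjusted permutation p = 3e-05 and 5e-05), and between 0.86 and 0.97 within groups. *Csf1* and its receptor *Csf1r* had r = 0.75 (rho = 0.81), *Csf1* and *Tnfrsf11a* 0.71 (0.74), *Tnfsf11* and *Csf1r* 0.68 (0.64) and *Tnfsf11* and *Tnfrsf11a* 0.56 (0.59), all with an adjusted permutation p of at most 0.0020. Without the 2 mice farthest from the median these 6 values of r lay between 0.59 and 0.88. No pair with *Il34* or *Tnfrsf11b* passed for r, and ligand and decoy, *Tnfsf11* and *Tnfrsf11b*, had r = 0.30 (rho = 0.32, adjusted permutation p = 0.16 and 0.14). All these values share the scaling factor of a library, which is itself part of the residual.

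Within groups, RANK followed the osteoclast markers. *Tnfrsf11a* correlated with the mean of 12 osteoclast genes at r = 0.72, 0.91 and 0.93 for wild-type mice, saline-treated mice and ABE-treated mice (adjusted permutation p = 0.049, 0.0086 and 0.0017 over 15 relations), with rho of 0.65, 0.76 and 0.91 (adjusted permutation p = 0.076, 0.035 and 0.0086). Without the 2 mice farthest from the median r was 0.55, 0.67 and 0.90. *Csf1r* correlated with the mean of 10 macrophage genes at r = 0.67, 0.70 and 0.79 (rho = 0.66, 0.73 and 0.78, adjusted permutation p for r = 0.054, 0.040 and 0.049), and without the 2 farthest mice r fell to 0.43 and 0.41 in wild-type and saline-treated mice and was 0.82 in ABE-treated mice. The decoy followed the osteocyte markers. *Tnfrsf11b* and the mean of 8 osteocyte genes had r = 0.75, 0.94 and 0.62 (rho = 0.76, 0.87 and 0.62, adjusted permutation p for r = 0.011, 0.0017 and 0.071), and 0.72, 0.84 and 0.38 without the 2 farthest mice. The saline-treated replicate 5 was lowest of its group in both *Tnfrsf11b* and the osteocyte list. *Tnfsf11*, which osteocytes also make, had r = 0.59, 0.0012 and 0.45 with the same list, and none of these passed (adjusted permutation p = 0.072, 1.0 and 0.22). The ratio of *Tnfsf11* to *Tnfrsf11b* and the osteoclast list had r = 0.40, 0.41 and 0.74 (rho = 0.55, 0.52 and 0.70, adjusted permutation p for r = 0.36, 0.36 and 0.071). Across groups the osteocyte list moved with *Tnfrsf11b*, as 7 of 7 osteocyte genes tested were higher in either *LMNA* G/G group than in wild-type, with median log2 fold changes of 2.07 and 1.91 where the median of all genes was 0.0044 and -0.017. Its part in the *Tnfrsf11b* difference was not tested.

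**Figure D5:**
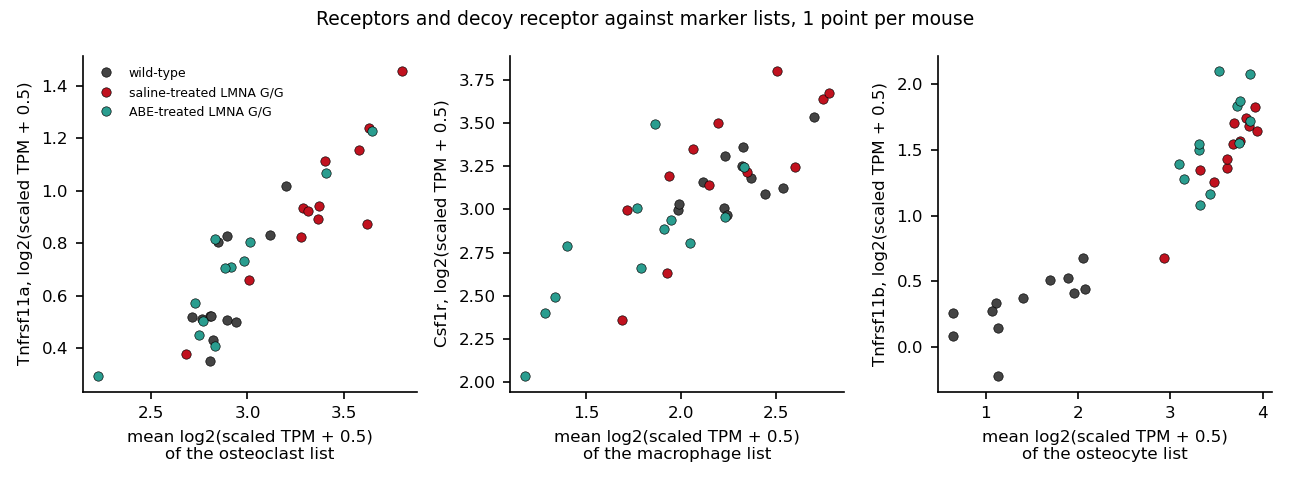
Receptor or decoy level against the mean of a marker list, both as log2(scaled TPM + 0.5), 1 point per mouse, coloured by group. *Tnfrsf11a* rises with the osteoclast list and *Csf1r* with the macrophage list across overlapping groups, whereas *Tnfrsf11b* and the osteocyte list put wild-type mice apart from both LMNA G/G groups.

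Of the 12383 genes that averaged 1 scaled TPM or more, those whose residual levels followed each gene best over the 36 libraries were named, as a description with no test. They were *Emilin1* (r = 0.82), *Csf1* (0.81) and *Tns3* (0.80) for *Tnfsf11*, and *Tns3* (0.94), *Cdh11* (0.89) and *Tnc* (0.89) for *Csf1*. For *Il34* they were *Ebf3* (0.76), *Fmo2* (0.71) and *Dpep1* (0.71), and for *Tnfrsf11b* *Wasl* (0.80), *Mef2a* (0.79) and *Epcam* (0.79). The receptors had closer neighbours, *Slc37a2* (0.93), *Ckb* (0.92) and *Gpr137b* (0.92) for *Tnfrsf11a* and Gpr137b-ps (0.96), *Gnptab* (0.95) and *Glb1* (0.95) for *Csf1r*. Gpr137b-ps is named as a pseudogene of *Gpr137b*, and reads may have been split between them.

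Downstream of RANK, 20 signalling genes were tested. Against wild-type 6 were higher and 10 lower in saline-treated bone (median log2 fold change -0.09), and 5 were higher and 10 lower in ABE-treated bone (-0.06). These 16 and 15 of 20 genes compare with 52.6% and 70.6% of all genes called in the same comparisons, so the count in ABE-treated bone was near that background. *Fos*, an AP-1 transcription factor required for osteoclast formation, was at 1.3, 5.25 and 5.62 scaled TPM in the 3 groups in the same order, a log2 fold change of 1.69 in saline-treated mice (limma adjusted p = 4.7e-11) and of 1.72 in ABE-treated mice (limma adjusted p = 2.7e-11). *Jun*, its partner, was higher than wild-type by 0.73 in saline-treated mice and higher again in ABE-treated than in saline-treated mice by 0.84 (limma adjusted p = 0.0014 and 0.0011). *Src*, a kinase needed for the ruffled border of osteoclasts, was lower in saline-treated than in wild-type mice (-0.43, limma adjusted p = 9.9e-04) and lower in ABE-treated than in saline-treated mice (-0.27, limma adjusted p = 0.034). Between ABE-treated and saline-treated mice 4 of the 20 genes were higher and 3 lower, below the 48.8% of all genes called there.

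Immunoreceptor partners of RANK signal through ITAM motifs, and 9 of 10 listed genes were tested. In saline-treated against wild-type bone 3 were higher and 5 lower. *Oscar*, an osteoclast receptor, was higher by 0.76 (limma adjusted p = 3.0e-04) and *Tyrobp*, the adaptor DAP12, by 0.44 (limma adjusted p = 0.024), whereas *Syk*, the kinase that both use, was lower (-0.73, limma adjusted p = 1.1e-04). *Tyrobp* lost its call with the neutrophil list as a covariate, and the lower genes *Btk* and *Plcg2* theirs with the muscle list. B cell markers were lower there in 7 of 8 cases, and their part in the ITAM differences was not tested. In ABE-treated against saline-treated bone 6 were lower and 0 higher (median -0.42), *Tyrobp* among them at -0.65 (limma adjusted p = 0.0025). No gene of the list was higher at an unadjusted p under 0.05 either, and without ABE replicate 1 the limma count was 3 lower and 0 higher. All 6 calls were lost with the muscle list as a covariate, and also with the neutrophil list. In ABE-treated against wild-type bone 6 were lower, with *Syk* at -1.02 (limma adjusted p = 3.4e-07). Of all genes tested 52.6%, 48.8% and 70.6% were called in these 3 comparisons, in the order given. The last count, 6 of 9, was near that share.

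Downstream of CSF1R 11 genes were tested, with 3 higher and 3 lower in saline-treated bone, and 4 higher and 5 lower in ABE-treated bone, against wild-type. These 6 and 9 of 11 genes are close to the 52.6% and 70.6% of all genes called. *Pik3r1*, a regulatory subunit of PI 3-kinase, was higher in saline-treated mice (0.25, limma adjusted p = 4.4e-05), and *Pik3cd*, a catalytic subunit of blood cells, was lower (-0.67, limma adjusted p = 2.1e-07). Between ABE-treated and saline-treated mice 2 were higher and 5 lower, where 48.8% of all genes were called. *Mitf*, a transcription factor of osteoclasts, was higher (0.28, limma adjusted p = 0.0050), and *Spi1*, the myeloid factor PU.1, was lower (-0.59, limma adjusted p = 0.0019). The 5 lower genes and *Mitf* lost their calls with the muscle list as a covariate, and all of them but *Spi1* with the neutrophil list. *Inpp5d*, a phosphatase that opposes PI 3-kinase, was lower in ABE-treated than in wild-type mice (-0.85, limma adjusted p = 1.1e-07). *Akt1*, the most abundant of the list, did not pass in either comparison with saline-treated mice. Against wild-type *Akt1* was called lower in ABE-treated mice (-0.083, limma adjusted p = 0.040), but not with the muscle list as a covariate.

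Of 4 other binding partners of RANKL, OPG or M-CSF and IL-34, *Ptprz1*, a receptor that also binds IL-34, was higher than wild-type by 1.02 in saline-treated mice (limma adjusted p = 1.8e-09) and by 1.08 in ABE-treated mice (limma adjusted p = 4.2e-10). *Sdc1*, syndecan-1, a heparan sulphate proteoglycan, was higher in saline-treated than in wild-type mice (0.40, limma adjusted p = 0.0088) and lower in ABE-treated than in saline-treated mice (-0.32, limma adjusted p = 0.035). In all, 3 of the 4 were higher in saline-treated mice and 2 in ABE-treated mice against wild-type. Of all genes 25.9% and 35.1% were called higher in these comparisons.

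Signals known to regulate RANKL, most of them inducers, were mixed. The list also held *Esr1*, the oestrogen receptor, which is not an inducer. Of 18 listed genes 14 were tested, and 7 were higher and 3 lower in saline-treated bone, 10 higher and 3 lower in ABE-treated bone against wild-type, and 4 higher and 4 lower between ABE-treated and saline-treated mice. Of all genes 52.6%, 70.6% and 48.8% were called in these comparisons, and 8 of 14 in the last is near that share. *Il1b*, interleukin-1 beta, went from 1.75 to 4.60 scaled TPM in saline-treated mice (1.21, limma adjusted p = 9.0e-08) and was lower in ABE-treated than in saline-treated mice, at 3.2 scaled TPM (-0.48, limma adjusted p = 0.012). *Tnf*, tumour necrosis factor, was lower in saline-treated (-0.87, limma adjusted p = 4.6e-10) and ABE-treated mice (-1.08, limma adjusted p = 3.9e-12) than in wild-type. *Lifr*, the receptor of leukaemia inhibitory factor, was higher by 0.79 and 0.77 (limma adjusted p = 5.7e-05 and 3.9e-05), and *Vdr*, the vitamin D receptor, by 0.87 in ABE-treated mice (limma adjusted p = 1.2e-05). *Il11ra1*, the interleukin-11 receptor, was higher in ABE-treated than in saline-treated mice (0.63, limma adjusted p = 3.9e-04).

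Among 8 tested brakes on osteoclast formation 1 was higher and 1 lower in saline-treated than in wild-type bone. *Irf8*, a transcription factor that restrains osteoclast genes, was lower in saline-treated (-1.11, limma adjusted p = 1.1e-08) and ABE-treated mice (-1.37, limma adjusted p = 1.3e-10) than in wild-type. *Nfkbia*, an NF-kB inhibitor, was higher in saline-treated mice (0.33, limma adjusted p = 5.6e-04). In ABE-treated against saline-treated bone *Bcl6*, a repressor, was higher (0.44, limma adjusted p = 9.4e-04), and *Lilrb4a*, an inhibitory receptor, was lower (-0.43, limma adjusted p = 0.0059), among 2 higher and 3 lower genes. Against wild-type, 1 of these 8 genes was higher and 3 were lower in ABE-treated bone. Of all genes 52.6%, 48.8% and 70.6% were called in these 3 comparisons, in the order given, so both counts against wild-type were below those shares. B cell markers were lower in 7 of 8 cases in saline-treated and in 7 of 8 in ABE-treated mice against wild-type, and their part in the *Irf8* difference was not tested.

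The counts for these pathway lists moved with the scaling. On TPM as deposited the RANK signalling genes were 2 higher and 9 lower in saline-treated bone against wild-type, and 2 higher and 15 lower in ABE-treated bone. In the same 2 comparisons the CSF1R genes were 0 higher and 3 lower, then 0 higher and 8 lower. The listed regulators of RANKL were 6 higher and 3 lower, then 1 higher and 5 lower. *Fos*, *Jun*, *Src*, *Syk*, *Oscar*, *Ptprz1*, *Tnf*, *Irf8*, *Pik3cd* and *Inpp5d* kept their calls against wild-type given above on that scale. *Tyrobp*, *Sdc1*, *Nfkbia* and *Pik3r1* lost theirs for saline-treated mice, and *Vdr* and *Lifr* for ABE-treated mice, where *Pik3r1* changed sign. *Bcl6* and *Mitf* lost theirs between ABE-treated and saline-treated mice, and 9 of the 10 ITAM genes that then passed the filter were lower there. In the same comparison the calls of *Src*, *Tyrobp*, *Sdc1*, *Il1b*, *Mitf* and *Lilrb4a* were lost with the muscle list or the neutrophil list as a covariate, that of *Spi1* with the muscle list, and those of *Src* and *Sdc1* without ABE replicate 1.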

How the data were processed

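Poly(A) RNA of 36 tibiae was sequenced as stranded libraries. The authors aligned paired-end reads to GRCm38 with STAR and counted them on GENCODE genes with QoRTs. The authors deposited TPM for 55484 gene symbols (731 symbols had several rows, of which that with the highest mean was used), with gene length and the fraction of G and C of each gene (not used further), and how TPM were calculated is not given in the sources used here. Multiplying each value by gene length less 218 bp gave whole multiples of 1 constant for a library (100% within 0.01), so read numbers on genes were recovered for depth and for limma-voom. Depth was 48064068 to 116206662 reads on genes per library. No 2 libraries were identical.

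Libraries were divided by the median ratio of 14217 genes to their geometric means (scaled TPM). Genes averaging 0.5 scaled TPM or more, 15923 in number, were tested with limma on log2(scaled TPM + 0.5), with group and sex as terms, and a gene was called where its p after Benjamini-Hochberg adjustment was under 0.05. The fit was tested on simulated data. Ratios and correlations were tested by permutation. Samples were grouped by their labelled genotype and treatment, and each is 1 mouse. The labels give no litters, so p-values measure the spread between these mice. Genes were read off by symbol, and IDs matched GENCODE vM21, whose coordinates are given. Promoter windows, from RefSeq, were found for 3 of the 6 genes. The pathway genes named were, in each list and comparison, the called gene with the largest change in each direction and the most abundant gene of each list, with the 3 genes that followed each of the 6 best. The 6 genes, lists and tests were chosen with earlier results of these data known. Alternatives were other scalings, quantile normalization, pseudocounts of 0.1 and 1, other filters, array weights, limma-voom, single sexes, no sex term, only the groups compared, muscle or neutrophil lists as covariates, and each library left out. Software was limma 3.58.1 in R 4.3.3, and matplotlib 3.10.9, scipy 1.17.1, pandas 2.3.3 and numpy 2.4.6 in Python 3.11.15.

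Skeletal imaging, histology and the transgene were not analysed here.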

Additional observations from a re-analysis of the deposited data

Results flagged for a closer look

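The estimated difference of *Csf1* from wild-type was larger in males than in females, but the interaction with sex did not pass after adjustment. In saline-treated mice the male log2 fold change exceeded the female one by 0.51 (SE 0.24, unadjusted limma interaction p = 0.043, adjusted 0.21), with values of 0.80 in males and 0.28 in females. In ABE-treated mice the excess was 0.60 (SE 0.24, unadjusted limma interaction p = 0.019, adjusted 0.16), with 0.59 in males and -0.01 in females. *Csf1* was lower in wild-type males, at 4.20 ± 0.690 scaled TPM (SD, n = 6), than in wild-type females, at 5.43 ± 0.977, whereas males stood above females in both other groups.

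The ratio of *Csf1* to *Csf1r* showed the same order, with a difference between ABE-treated and wild-type mice of 0.94 in males and 0.45 in females on the log2 scale, an excess of 0.49 (permutation p = 0.0055, adjusted 0.099 over 18 tests). None of these 3 interactions passed after adjustment, and each was noticed at an unadjusted p under 0.05 among 36 tests.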

How the results depend on the processing

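No paired analysis was possible because the labels give no replicate numbers, litters or pairs that the groups share. *Tnfsf11* (saline-treated against wild-type, and ABE-treated against saline-treated) and *Tnfrsf11b* (either *LMNA* G/G group against wild-type) passed in every alternative in which they were tested, and *Tnfsf11* fell under the filter at 1 scaled TPM.

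Of all genes, 4740 passed for saline-treated against wild-type mice on TPM as deposited, 13140 with no filter and 3421 in females, against 8375. Between ABE-treated and saline-treated mice 3370 were called in males, 4896 in females, 1859 with the muscle list and 1324 with the neutrophil list as covariate, against 7764. Against wild-type in ABE-treated mice 19175 were called with no filter and 5809 with the muscle list, against 11239. With 1 library left out these counts ranged from 7777 to 8888, 6753 to 8582 and 11004 to 11449.

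The log2 ratio of *Tnfsf11* to *Tnfrsf11b* in saline-treated against wild-type mice passed unadjusted with a pseudocount of 0.5 (-0.51) or 1 (-0.46) and as a difference of medians (-0.62), and ranged from -0.55 to -0.32 with 1 library left out. Between ABE-treated and saline-treated mice it missed the threshold in females (-0.70) and ranged from -0.88 to -0.68. Against wild-type in ABE-treated mice it ranged from -1.30 to -1.13.

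Signs turned for values that had not passed or no longer passed, and the cause was not tested. *Csf1r* in saline-treated against wild-type mice was -0.11 on TPM as deposited, -0.12 on TPM rescaled without the shortest genes, -0.16 in females (but 0.28, and called, in males), -0.018 with the neutrophil list and -0.0013 to 0.13 with 1 library left out. Between ABE-treated and saline-treated mice *Il34* was -0.23 as deposited, -0.0061 in females and -0.016 to 0.089 with 1 library left out, *Tnfrsf11b* -0.18 and -0.015 as deposited and in females, and the *Csf1* to *Csf1r* ratio -0.027 in females. Against wild-type in ABE-treated mice *Csf1* was -0.22 as deposited and -0.015 in females, *Il34* -0.14 as deposited, and *Tnfrsf11a* -0.27 as deposited and -0.070 without the shortest genes. The *Il34* to *Csf1r* ratio was -0.075 in males and the *Csf1* to *Il34* ratio -0.083 in females (0.65 in males) for saline-treated against wild-type mice. For ABE-treated against wild-type mice the latter was 0.018 and 0.051 with pseudocounts of 0.5 and 1, 0.32 in males and -0.12 to 0.030 with 1 library left out. The correlation of *Tnfsf11* with the osteocyte list in saline-treated mice was -0.0030 with sex left in.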
